A study of Mus musculus with 2 samples.

Results

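*Cck*-positive Cajal-Retzius (CR) cells were the 180 of 1265 hippocampal CR cells that held at least 2 UMIs of *Cck*, the gene for the neuropeptide cholecystokinin, and no UMI of the kainate receptor subunit gene *Grik1*. A UMI (unique molecular identifier) marks 1 captured RNA molecule. The cells were also required to hold fewer than 2 UMIs over *Chst8* and *Alkal2* together. The 1265 cells were barcodes with at least 2000 UMIs, up to 8% of UMIs from mitochondrial (mt-) genes, at least 5 UMIs of *Reln* and under 1.8% of UMIs from nuclear genes of oxidative phosphorylation (OXPHOS). The control library gave 136 *Cck*-positive cells of 916, or 14.9% (95% Clopper-Pearson interval 12.6 to 17.3), and the knockout library gave 44 of 349, or 12.6% (9.31 to 16.6). The intervals of these shares overlap, and all intervals given here cover counting error only.

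The study used single-cell RNA-sequencing to ask how CR cells differ among themselves and how loss of the transcriptional repressor gene *Cic* changes them. The control library pooled sorted tdT-positive cells from hippocampi of 4 ΔNp73-Cre; *Cic* flox/+; tdT mice (3 males and 1 female) at postnatal day 14, and the knockout library those of 4 ΔNp73-Cre; *Cic* flox/flox; tdT littermates (2 males and 2 females) of the same age. All mice of both groups carried the Cre, the reporter and at least 1 floxed allele, so the controls were conditional heterozygotes and no library came from mice without Cre. The Cre is driven by ΔNp73, which is active in the CR lineage, and only cells with that history of expression carry the reporter. Each genotype was a single library whose barcodes name no animal, and no difference between genotypes had a replicate. The matrices held 16336796 UMIs in the control library and 6777071 UMIs in the knockout library, and no barcode was shared between the cells of the libraries.

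CR cells are early-born neurons at the surface of the developing cortex and along the hippocampal fissure. They secrete reelin, which guides the migration and layering of other neurons, and most of them die in the first postnatal weeks. Cholecystokinin is a neuropeptide best known in the hippocampus from a class of GABAergic interneurons, so the markers of those interneurons were examined in the *Cck*-positive cells as well.

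The 300 bases around the start sites of *Cck*, which defined the cells, and of *Ptprm*, *Cacng5* and *Fibin*, the given marker genes other than *Reln*, are shown because the latter 3 were higher in the *Cck*-positive cells. These markers were chosen with earlier results of these data known. The sequences are from RefSeq (GRCm38.p6), run 5′ to 3′ on the minus strand from 250 bases before the start to 50 bases after it, and lie at chr9:121495645-121495944 for *Cck*, chr17:67354410-67354709 for *Ptprm*, chr11:107915006-107915305 for *Cacng5* and chr2:110362944-110363243 for *Fibin*. Capitals mark TGACG, the core of the cAMP response element, read on either strand. They also mark the E-box CACGTG.
Cck: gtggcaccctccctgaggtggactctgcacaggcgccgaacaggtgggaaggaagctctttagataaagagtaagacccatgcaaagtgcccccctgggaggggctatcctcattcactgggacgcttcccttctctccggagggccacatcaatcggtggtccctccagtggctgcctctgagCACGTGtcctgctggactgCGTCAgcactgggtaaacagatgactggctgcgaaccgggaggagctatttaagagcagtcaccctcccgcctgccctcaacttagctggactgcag
Ptprm: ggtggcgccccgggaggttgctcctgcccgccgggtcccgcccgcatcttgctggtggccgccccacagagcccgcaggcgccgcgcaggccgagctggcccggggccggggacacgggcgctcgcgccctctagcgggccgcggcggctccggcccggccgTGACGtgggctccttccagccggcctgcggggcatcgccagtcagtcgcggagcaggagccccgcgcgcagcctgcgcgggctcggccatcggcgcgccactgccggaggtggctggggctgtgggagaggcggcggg
Cacng5: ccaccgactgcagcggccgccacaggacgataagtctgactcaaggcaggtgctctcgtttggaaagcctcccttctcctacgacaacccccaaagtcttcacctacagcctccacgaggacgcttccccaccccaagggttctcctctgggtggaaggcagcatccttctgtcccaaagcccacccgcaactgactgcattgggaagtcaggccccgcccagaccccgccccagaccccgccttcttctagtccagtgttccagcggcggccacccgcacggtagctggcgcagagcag
Fibin: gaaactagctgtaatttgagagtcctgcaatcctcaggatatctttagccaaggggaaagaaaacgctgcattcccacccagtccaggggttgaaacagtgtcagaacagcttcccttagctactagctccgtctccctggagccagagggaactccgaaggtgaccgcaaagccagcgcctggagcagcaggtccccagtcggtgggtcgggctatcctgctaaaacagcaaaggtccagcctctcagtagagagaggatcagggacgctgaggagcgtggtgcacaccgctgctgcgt
The *Cck* window held CACGTG at position -66 from the start and TGACG, on the other strand, at -47, and the *Ptprm* window held TGACG at -88. The windows of *Cacng5* and *Fibin* held neither. On either strand, TGACG was present in 20.8% of 32851 promoter windows of this length and CACGTG in 7.15%. None of the 4 windows held CAGCTG or TAATTA, which were present in 16.3% and 5.29% of all windows. These 4 motifs do not overlap one another in the windows shown. For *Cacng5*, the start that matches the GENCODE M21 gene was used of 2 in the table.

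Of 11 tested marker genes of CR cells, 10 were within 1.5-fold between the *Cck*-positive and the other cells in at least 1 library. *Reln*, of which every compared cell had to hold at least 5 UMIs, is given as a description, and was at 8616 CPM (counts per 1000000) in the *Cck*-positive and 8571 CPM in the other control cells, and at 8903 and 8216 CPM in the knockout cells. CPM are UMIs summed over the cells of a group, per 1000000 UMIs outside mt- genes and ribosomal protein genes. *Trp73*, whose product is a p53-family factor of CR cells, was at 433 against 463 CPM in control cells and at 553 against 481 CPM in knockout cells. The *Trp73* levels differed by less than their counting error, with ratios of 0.934 (95% interval 0.833 to 1.05) and 1.15 (0.966 to 1.36). *Slc17a6*, the vesicular glutamate transporter of CR cells, was at 515 against 518 CPM and at 443 against 459 CPM. *Calb2*, which codes for the calcium-binding protein calretinin, was 2.12-fold (1.63 to 2.72) higher in control and 1.96-fold (1.36 to 2.76) higher in knockout *Cck*-positive cells. Droplets of 20 to 100 UMIs, which hold free RNA, had more *Calb2* than either group, at 566 and 722 CPM. *Calb2* was the single one of 11 tested CR cell marker genes past a 1.5-fold difference in both libraries.

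Defining markers of other cell types were mostly at 0 in the *Cck*-positive cells, while single genes of several marker lists were not. Of 12 GABAergic interneuron markers, 8 had no UMI in the control *Cck*-positive cells and 8 had none in knockout cells, and *Gad2*, *Slc32a1*, *Lhx6*, *Sst*, *Vip*, *Npy* and *Sncg* were at 0 in both. The sum of these markers was lower in the *Cck*-positive than in the other cells, at 117 against 250 CPM in control cells and 130 against 243 CPM in knockout cells. The 7 granule neuron markers summed to 287 against 365 CPM in control cells and 319 against 329 CPM in knockout cells. Nearly all of this was *Dock10*, at 268 and 302 CPM in the *Cck*-positive cells, and *C1ql2*, *Stxbp6* and *Plk5* were at 0 in both. The 8 pyramidal neuron markers summed to 57.7 against 72.9 CPM and 48.1 against 86.9 CPM, with *Fibcd1* the most abundant and *Slc17a7* and *Neurod6* at 0 in both.

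Glial and vascular markers showed the same mixture of genes at 0 and single genes above it. The 7 astrocyte markers summed to 64.9 against 108 CPM in control cells and to 124 CPM in either group of the knockout, with *Slc1a2* the most abundant in the control at 55.3 CPM, *Apoe* in the knockout at 58.3 CPM, and *Aqp4*, *Aldh1l1* and *Gja1* at 0 in the *Cck*-positive cells of both. Of the 5 oligodendrocyte precursor markers, *Pdgfra*, *Olig1*, *Olig2* and *Gpr17* were at 0 there, and the whole sum was *Cspg4*, at 70.9 CPM in control and 117 CPM in knockout *Cck*-positive cells. The precursor sum was 1.10-fold (0.816 to 1.45) and 1.52-fold (1.02 to 2.21) that of the other cells. The 7 microglial markers summed to 82.9 against 64.6 CPM and 44.6 against 70.9 CPM, with *P2ry12* at 40.9 and 20.6 CPM and with *C1qa*, *C1qb* and *Tmem119* at 0 in both. Of 8 endothelial and mural markers, the sum was 144 against 115 CPM in control cells and 154 against 95.4 CPM in knockout cells. Most of it was *Rgs5*, at 103 and 113 CPM, while *Cldn5*, *Flt1*, *Kdr*, *Vtn* and *Kcnj8* were at 0 in the *Cck*-positive cells of both libraries. The 5 fibroblast markers, mostly *Col1a1*, summed to 19.2 against 9.14 CPM in control cells, a ratio of 2.10 (1.11 to 3.80) on 16 UMIs in the *Cck*-positive cells, and to 24.0 against 15.5 CPM in knockout cells, a ratio of 1.55 (0.577 to 3.59) on 7 UMIs. The 6 oligodendrocyte markers summed to 14.4 against 16.8 CPM and 10.3 against 23.0 CPM. Doublets were not removed from these counts, and the part of these cell types in the results below was not tested.

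*Cck* itself defined the cells and is described without a test. The *Cck*-positive cells held 688 CPM of *Cck* in control cells and 683 CPM in knockout cells, and the other cells 58.8 and 36.9 CPM. Single *Cck*-positive cells held 2 to 16 *Cck* UMIs in control cells and 2 to 17 in knockout cells, with a median of 3 in both. Many cells were thus close to the threshold, with exactly 2 UMIs in 45 control and 16 knockout cells and 5 or more in 46 and 11. Just outside the threshold, 90 control and 26 knockout cells had 1 *Cck* UMI under the same limits on *Grik1*, *Chst8* and *Alkal2*, and 425 and 178 had none. Of the *Cck* UMIs of all CR cells, 66.9% in the control library and 72.9% in the knockout library lay in the *Cck*-positive cells. Among the CR cells with at least 2 *Cck* UMIs, the limit on *Grik1* removed 21 of 175 control and 6 of 56 knockout cells, and the limit on *Chst8* and *Alkal2* removed a further 18 and 6.

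The depth of the *Cck*-positive cells was read beside that of the others. Their UMIs per cell had a median of 6047 (3004 to 15182) in control cells, where other cells had 6118 (2117 to 31769), and of 6333 (3003 to 14713) in knockout cells, where other cells had 6452 (2769 to 15872). The threshold of 2 *Cck* UMIs depends on depth, and with each cell thinned to 3000 UMIs 9.86% of control and 8.09% of knockout cells met the rule. The median number of genes was 2627 against 2671 and 2782 against 2767. The OXPHOS share of all counted UMIs was 0.846% against 0.761% in control cells and 0.849% against 0.808% in knockout cells, and the highest share in a *Cck*-positive cell was 1.63% and 1.53%. Free RNA, read from 29040 control and 75813 knockout droplets of 20 to 100 UMIs, held 130 CPM of *Cck* in the first and 85.6 CPM in the second, above the level in the other CR cells and below that in the *Cck*-positive cells. Its share in the CR cells, read from 16 genes taken as absent from them, was 11.5% in the control and 4.59% in the knockout. The estimates rest on 46 control and 18 knockout UMIs of those genes in the cells, and no interval was made for them. These shares were used wherever free RNA was subtracted.

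The 3 marker genes that the rule did not use were all higher in the *Cck*-positive cells of both libraries. *Ptprm*, which codes for a receptor tyrosine phosphatase that binds itself between cells, was at 159 CPM in the *Cck*-positive and 62.3 CPM in the other control cells, and at 247 and 74.9 CPM in the knockout cells. The ratios were 2.55 (2.06 to 3.13) in control cells and 3.30 (2.46 to 4.40) in knockout cells. *Cacng5*, a gene for an auxiliary subunit of AMPA receptors, was at 64.9 against 32.2 CPM and at 75.5 against 30.0 CPM, with ratios of 2.02 (1.45 to 2.76) and 2.52 (1.47 to 4.17), and 1 knockout cell held 27.3% of the UMIs of the knockout *Cck*-positive cells. *Fibin*, named for a secreted factor of fin bud initiation, was at 75.7 against 34.5 CPM and at 85.8 against 27.0 CPM, with ratios of 2.20 (1.62 to 2.95) and 3.18 (1.90 to 5.20). None of the 3 genes marked every cell. *Ptprm* had a UMI in 48.5% of 136 control and 54.5% of 44 knockout *Cck*-positive cells, against 20.3% and 24.9% of the others.

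The markers were spread over the *Cck*-positive cells, and many of these cells had none of them. No UMI of *Ptprm*, *Cacng5* or *Fibin* was found in 31.6% of the control *Cck*-positive cells against 65.6% of the others, and in 13.6% against 61.0% in knockout cells. All 3 were found in 8.09% of the control and 4.55% of the knockout *Cck*-positive cells, against 2.56% and 0.984% of the others. After thinning to 3000 UMIs, *Ptprm* remained in 34.6% of control and 43.2% of knockout *Cck*-positive cells and in 12.1% and 17.2% of the others. *Cacng5* remained in 16.9% (11.0 to 24.3) against 8.34% (6.49 to 10.5) of control cells and in 20.5% (9.80 to 35.3) against 8.94% (5.98 to 12.7) of knockout cells. *Fibin* remained in 14.7% (9.22 to 21.8) against 8.48% (6.60 to 10.7) and in 13.6% (5.17 to 27.4) against 5.96% (3.57 to 9.26). The thinned intervals overlapped for *Fibin* in both libraries and for *Cacng5* in the knockout. In droplets of 20 to 100 UMIs, *Ptprm* was at 6.43 and 12.2 CPM, *Cacng5* at 7.34 and 7.90 CPM and *Fibin* at 36.7 and 28.3 CPM, so the free RNA held less of *Ptprm* and *Cacng5* than the other CR cells did, and about as much *Fibin*.

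**Figure D1:**
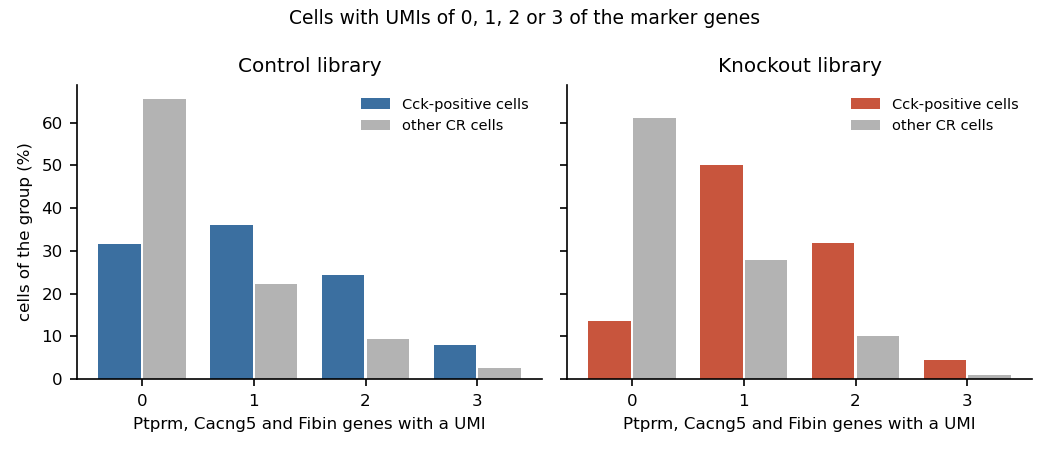
Share of cells (%, y axis) with a UMI of 0, 1, 2 or 3 of the genes *Ptprm*, *Cacng5* and *Fibin* (x axis), for *Cck*-positive cells (coloured bars) and other CR cells (grey bars) of the control and the knockout library. The bars at 0 are lower for the *Cck*-positive cells, at 31.6% in control cells and 13.6% in knockout cells, than for the other cells, at 65.6% and 61.0%.

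Across all genes, 6250 genes with at least 200 UMIs were compared between the *Cck*-positive and the other cells. In the control alone, 187 were at least 1.5-fold higher and 301 at least 1.5-fold lower, and in the knockout alone, with fewer UMIs, 457 and 832. At least a 1.5-fold higher level in both libraries was found for 69 genes (1.1%) and a 1.5-fold lower level in both for 112 genes (1.79%). Without the top cell of each gene in each group these counts were 38 and 233, and against other cells under the same *Grik1*, *Chst8* and *Alkal2* limits they were 49 and 70. The median log2 ratio over all 6250 genes was -0.02 in control cells and -0.04 in knockout cells. With 1 library per genotype, a called gene means one past this fold in both, not one that passed a test.

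The 12 genes with the highest and the 12 with the lowest ratios were ranked by the weaker of the interval bounds of both libraries. *Ntrk3*, the receptor gene for neurotrophin-3, was highest, at 117 CPM in the *Cck*-positive and 21.6 CPM in the other control cells and at 48.1 and 6.99 CPM in the knockout cells. It was 5.40-fold (4.05 to 7.18) and 6.87-fold (3.04 to 15.6) higher, and the knockout values rest on 14 UMIs in each group. A UMI of *Ntrk3* was found in 27.2% of control and 20.5% of knockout *Cck*-positive cells, against 7.05% and 3.93% of the others.

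Peptide genes other than *Cck* were represented by *Penk* and *Scg2*. *Penk*, the proenkephalin gene, was at 69.7 against 31.4 CPM in control cells and at 175 against 56.9 CPM in knockout cells, with ratios of 2.22 (1.61 to 3.03) and 3.08 (2.17 to 4.32). In the knockout, 1 *Cck*-positive cell held 37.3% of their *Penk* UMIs. *Scg2*, a granin of dense-core vesicles, was at 153 against 67.3 CPM and at 158 against 76.4 CPM, and was 2.27-fold (1.83 to 2.79) and 2.07-fold (1.45 to 2.89) higher. Of 37 control *Cck*-positive cells with *Ntrk3* and 22 with *Penk*, 4 had both, and of 9 and 14 knockout cells, 2 had both. These counts are too small to tell whether the genes mark separate cells.

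The remaining high genes included genes of channels and of signalling. *Kcnip1*, a gene for a subunit that binds Kv4 potassium channels, was at 565 against 275 CPM in control cells and at 686 against 366 CPM in knockout cells, a ratio of 2.05 (1.84 to 2.28) and 1.88 (1.60 to 2.20). *Cacna2d3*, an auxiliary calcium channel subunit gene, was at 997 against 555 CPM and at 913 against 536 CPM, with ratios of 1.796 (1.66 to 1.94) and 1.70 (1.48 to 1.95). It had a UMI in 97.1% and 97.7% of the *Cck*-positive cells. *Jag1*, the gene of a Notch ligand, was at 242 against 114 CPM and at 292 against 155 CPM, with ratios of 2.13 (1.799 to 2.50) and 1.89 (1.47 to 2.40). *Cnnm1*, of a family linked to magnesium transport, had ratios of 2.24 (1.64 to 3.02) and 2.78 (1.59 to 4.69). *Fbxl7*, the gene of an F-box protein, had 2.02 (1.76 to 2.31) and 2.02 (1.52 to 2.66), and *Gm49267* had 2.60 (1.94 to 3.46) and 3.03 (1.54 to 5.72). *Gm49267* lies antisense within *Fbxl7* (chr15:26609503-26644048 within chr15:26540459-26895580, GRCm38), and since the strand counted is not given in the sources used here, these 2 genes are uncertain.

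Among the 12 genes lowest in the *Cck*-positive cells, *Rbfox1* and *Trpc5* had the lowest ratios in the control. *Rbfox1*, the gene of a neuronal splicing factor, was at 6.01 CPM in the *Cck*-positive and 134 CPM in the other control cells, and at 3.43 and 106 CPM in the knockout cells. The ratios of *Rbfox1* were 0.0450 (0.0146 to 0.106) and 0.0324 (8.17e-04 to 0.183), on 5 and 1 UMIs in the *Cck*-positive cells. *Trpc5*, a cation channel gene, had 4 and 1 UMIs there, with ratios of 0.0624 (0.0169 to 0.161) and 0.0593 (0.00149 to 0.337). Both genes were thus nearly absent from the *Cck*-positive cells at this depth. *Nrxn3*, the gene of a presynaptic adhesion protein, was at 51.7 against 283 CPM in control cells and at 17.2 against 299 CPM in knockout cells, with ratios of 0.183 (0.132 to 0.248) and 0.0574 (0.0186 to 0.135). It had a UMI in 8.09% of control and 6.82% of knockout *Cck*-positive cells and in 25.4% and 24.3% of the others.

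*Dcc*, the netrin receptor gene, was the most widely detected of the 12 low genes in the *Cck*-positive cells. It was at 780 against 1827 CPM in control cells and at 690 against 1760 CPM in knockout cells, with ratios of 0.427 (0.394 to 0.462) and 0.392 (0.338 to 0.452), and 75.0% of the *Cck*-positive cells in either library still had a UMI of it. *Ecel1*, a gene for a membrane metalloprotease, was at 78.1 against 360 CPM and at 96.1 against 358 CPM. *Kcnd2*, which codes for the Kv4.2 potassium channel, was at 72.1 against 192 CPM and at 30.9 against 177 CPM. *Kcnd2* was thus lower in the cells in which *Kcnip1*, whose product binds Kv4 channels, was higher. The other 6 genes were *Brinp3*, the fibrillar collagen gene *Col24a1*, *Thsd7a*, *C1qtnf4*, the orphan nuclear receptor gene *Nr2f1* and the bicarbonate transporter gene *Slc4a4*, with control ratios from 0.169 for *Col24a1* to 0.368 for *Slc4a4* and knockout ratios from 0.0380 for *Col24a1* to 0.382 for *C1qtnf4*.

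**Figure D2:**
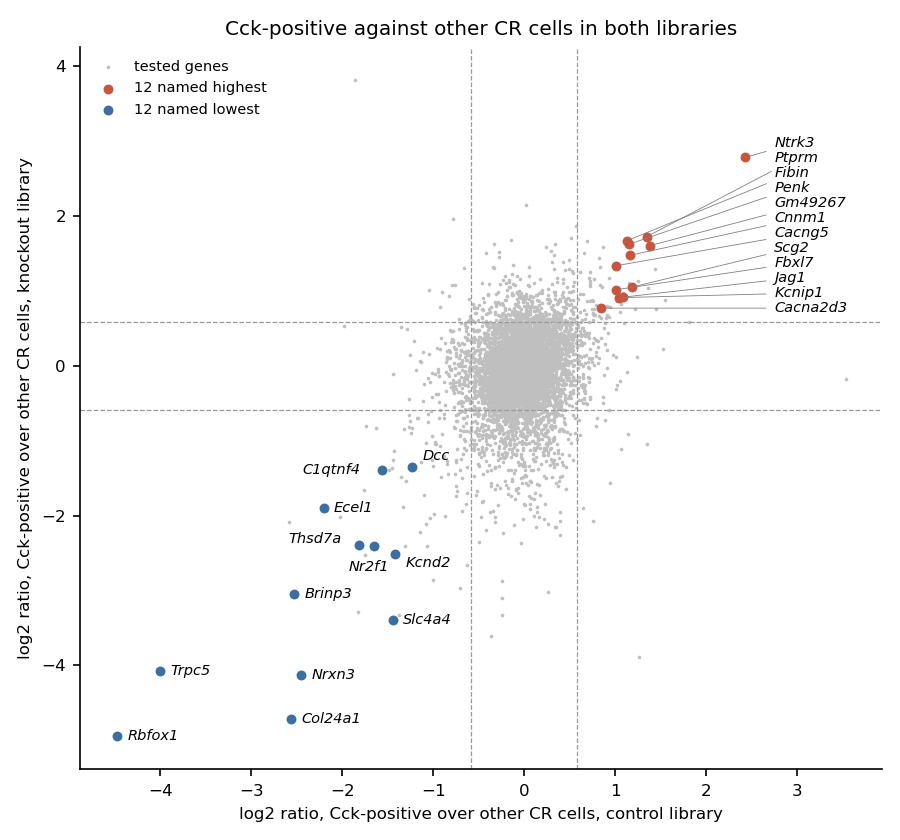
Log2 ratio of CPM in *Cck*-positive over other CR cells for genes with at least 200 UMIs, in the control library (x axis) and the knockout library (y axis), with genes at 0 in a group left out and dashed lines at 1.5-fold. The 12 highest genes (red), with *Ntrk3* farthest out, and the 12 lowest (blue), with *Rbfox1* farthest, lie past the lines in both libraries.

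The other CR cells were a mixture, so each of the 24 genes was also read against the 3 classes within it, namely 175 control and 66 knockout cells with a *Grik1* UMI, 90 and 35 cells with at least 2 UMIs over *Chst8* and *Alkal2* and no *Grik1*, and 515 and 204 cells with 0 or 1 *Cck* UMI and neither. The 24 genes were chosen from the same counts pooled over these classes, so the classes show where a difference lay and test nothing. All 12 high genes were higher and all 12 low genes were lower in the *Cck*-positive cells than in each class, in both libraries. The interval left out 1 in all of these comparisons except 1 high gene against the *Chst8* or *Alkal2* cells and 1 low gene against the *Grik1*-positive cells, both in knockout cells. *Ptprm* was at 159 CPM in the control *Cck*-positive cells, at 76.2 CPM in cells with 0 or 1 *Cck* UMI, at 56.2 CPM in the *Chst8* or *Alkal2* cells and at 28.6 CPM in the *Grik1*-positive cells. Its order was the same in knockout cells, at 247, 84.4, 75.9 and 47.9 CPM, although the values of the cells with 0 or 1 *Cck* UMI and the *Chst8* or *Alkal2* cells lay within each other's intervals there.

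The distance to the classes differed by gene. *Rbfox1* was at 304 CPM in control and 187 CPM in knockout *Grik1*-positive cells, its highest levels, and at 34.7 and 72.1 CPM in the *Chst8* or *Alkal2* cells. *Penk* was 6.02-fold (2.74 to 15.6) higher in the control *Cck*-positive cells than in the *Chst8* or *Alkal2* cells and 1.96-fold (1.29 to 3.00) higher than in the *Grik1*-positive cells. *Kcnip1* was closest to the *Chst8* or *Alkal2* cells in control cells, at a ratio of 1.44 (1.23 to 1.68). *Ntrk3* had no UMI in the knockout *Grik1*-positive cells. *Cck* itself was at 159 and 91.0 CPM in the *Chst8* or *Alkal2* cells and at 84.1 and 52.3 CPM in the *Grik1*-positive cells, some of which had been set aside by the limits on those genes.

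**Figure D3:**
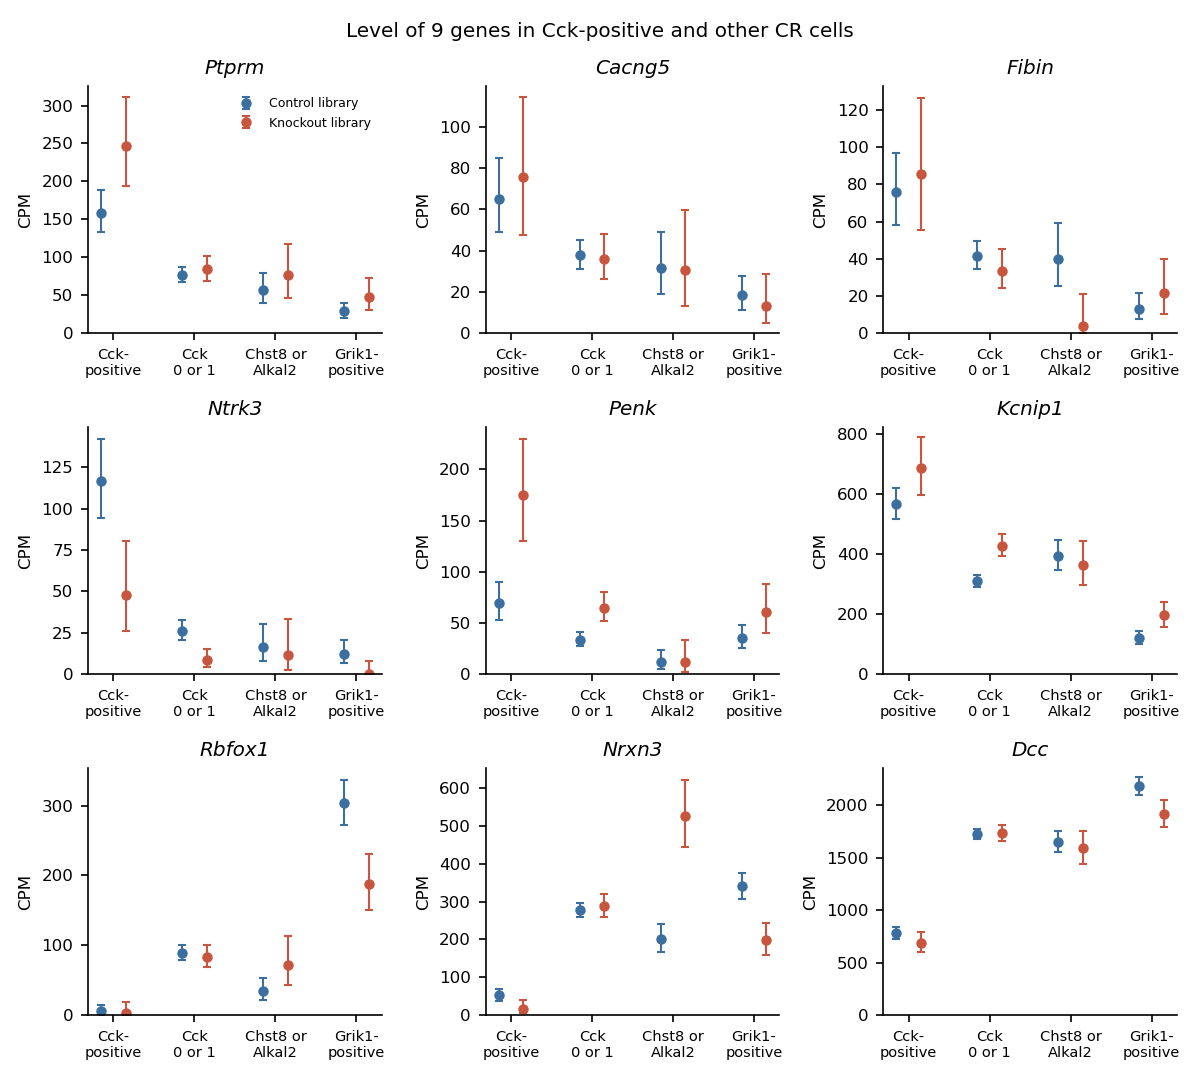
CPM (y axis) of 9 genes in *Cck*-positive cells and in the 3 classes of other CR cells (x axis), in the control library (blue) and the knockout library (red), with 95% Poisson intervals as bars. The upper 2 rows hold genes that are highest in the *Cck*-positive cells, and the lower row holds *Rbfox1*, *Nrxn3* and *Dcc*, which are lowest there.

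The levels of several genes also differed between cells with 0, 1 and 2 *Cck* UMIs. Under the same limits on *Grik1*, *Chst8* and *Alkal2*, control *Dcc* was at 1825 CPM in cells with 0 *Cck* UMIs, 1272 CPM with 1, 873 CPM with 2, 694 CPM with 3 to 4 and 778 CPM with 5 or more. Knockout *Dcc* was at 1825, 1117, 745, 815 and 468 CPM in the same order. *Nrxn3* was at 308, 135, 63.5, 27.8 and 65.1 CPM in control cells and at 314, 107, 11.5, 25.7 and 11.4 CPM in knockout cells. Cells with a single *Cck* UMI were thus between those without *Cck* and the *Cck*-positive cells for these genes. By the choice of these genes, which used the same cells, such an order is no test. It held for 12 of the 12 low genes in control cells and 10 in knockout cells, and for 9 and 7 of the 12 high genes.

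At the threshold itself, *Dcc* and *Nrxn3* were the genes of the 24 whose ratio of cells with 2 to cells with 1 *Cck* UMI had an interval that left out 1 in both libraries. For *Dcc* it was 0.687 (0.590 to 0.797) in control cells and 0.667 (0.494 to 0.891) in knockout cells. *Kcnip1* was at 268 CPM with 0, 499 CPM with 1 and 538 CPM with 2 *Cck* UMIs in control cells, and at 391, 684 and 711 CPM in knockout cells, so its larger step lay between 0 and 1 UMI. *Ptprm* was at 69.6, 106 and 161 CPM in control cells and 72.3, 170 and 275 CPM in knockout cells. *Ntrk3* increased again within the control *Cck*-positive cells, from 41.1 CPM (20.5 to 73.5) with 2 *Cck* UMIs to 142 CPM (102 to 193) with 3 to 4 and 163 CPM (119 to 218) with 5 or more. In the knockout it was at 68.8, 8.58 and 80.0 CPM, on 6, 1 and 7 UMIs. *Reln* stayed between 8178 and 9126 CPM over all steps of both libraries.

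**Figure D4:**
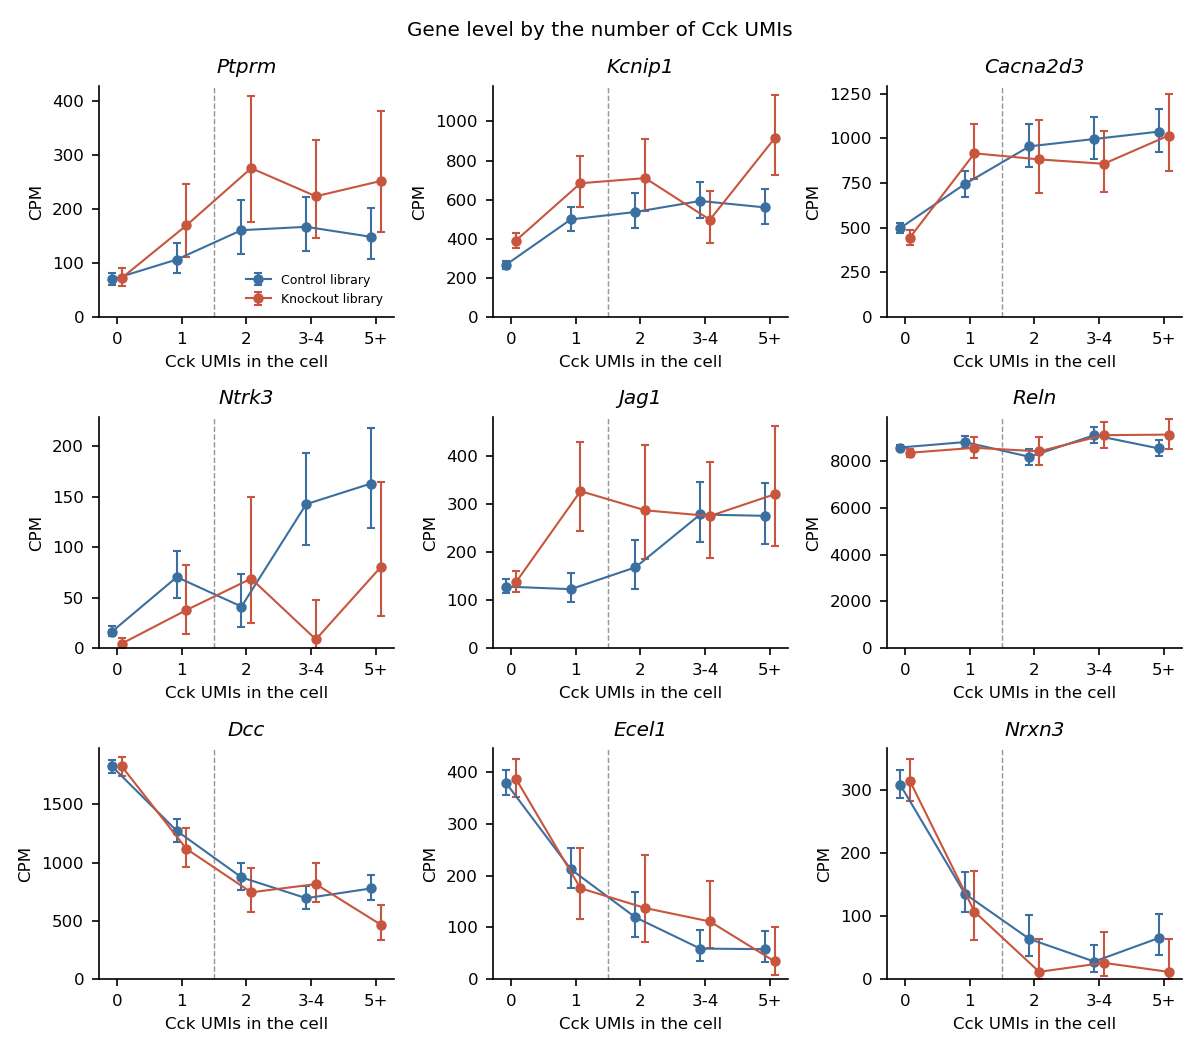
CPM (y axis) of 9 genes in CR cells grouped by their *Cck* UMIs (x axis), in the control library (blue) and the knockout library (red), with 95% Poisson intervals as bars and a dashed line at the threshold of 2 UMIs. *Dcc*, *Ecel1* and *Nrxn3* are lower with 1 *Cck* UMI than with 0 and lower again with 2 in control cells, while *Reln* stays level.

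Gene families were then read for the *Cck*-positive cells against all others, as counts past 1.5-fold in both libraries beside the shares of 1.1% higher and 1.79% lower over all genes. The others include the *Grik1*-positive and the *Chst8* or *Alkal2* cells, which the rule kept out of the *Cck*-positive cells, so each called list member was also read against the cells with 0 or 1 *Cck* UMI alone. All 15 list members that were higher were still past the fold in both libraries, as were 16 of 20 that were lower, while *Ptprd*, *Grik4*, *Epha5* and *Dab1* were not. Of the peptide genes, 1 of 5 tested neuropeptide genes (*Penk*) and 1 of 12 tested granin and processing genes (*Scg2*) were higher and none was lower. *Cpe*, the carboxypeptidase that trims prohormones, was at 1418 CPM in control and 1417 CPM in knockout *Cck*-positive cells. The cholecystokinin receptor genes *Cckar* and *Cckbr* had no UMI in the *Cck*-positive cells of either library, so the peptide gene was found there without its receptors at this depth. A count of 0 allows up to 3 UMIs. The peptide receptors as a group were at 50.5 CPM summed over 23 genes in control cells and 24.0 CPM in knockout cells.

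In 3 families of axon guidance genes, 4 genes were lower and 2 were higher. Of 11 tested Slit, Robo and netrin genes, *Dcc* and the Slit receptor gene *Robo1* were lower and none was higher, with a median log2 ratio of -0.28 in control cells and -0.27 in the knockout against -0.02 and -0.04 over all genes. *Robo1* was at 269 against 459 CPM in control cells and at 230 against 404 CPM in knockout cells. Summed over the family, the level was 0.755-fold (0.733 to 0.778) and 0.711-fold (0.673 to 0.751) that of the other cells. Without *Dcc*, one of the 12 lowest genes, it was 0.857-fold (0.830 to 0.886) and 0.820-fold (0.773 to 0.870). Most of that remaining sum was *Robo2*, which was not past the fold in both libraries. It was at 3674 of 5046 CPM in control and 3099 of 4225 CPM in knockout *Cck*-positive cells. Of 13 tested semaphorin, plexin and neuropilin genes, *Plxna2* was higher, at 72.1 against 26.6 CPM and 37.8 against 15.5 CPM, and *Sema4d* was lower. Of 7 tested ephrin and Eph receptor genes, *Epha4* was higher, by 1.65-fold (1.24 to 2.15) and 2.13-fold (1.36 to 3.23), and *Epha5* was lower.

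Adhesion genes at synapses and cell contacts were read in 3 lists. Of 26 tested synaptic adhesion genes, 4 were lower (*Nrxn3*, *Nlgn1*, *Lrrtm3* and *Lrrtm4*) and *Cntnap5b* was higher, and the median log2 ratio was -0.14 in control cells and -0.30 in knockout cells. *Nlgn1*, whose product is a postsynaptic partner of neurexins, was at 25.2 against 83.9 CPM in control cells and at 51.5 against 90.4 CPM in knockout cells. *Lrrtm4* was at 258 against 490 CPM and at 360 against 757 CPM. Of 10 tested receptor tyrosine phosphatases, *Ptprm* was higher and *Ptprd* lower, the latter at 150 against 286 CPM and 209 against 317 CPM. *Cdh13* and *Ctnna3* were lower among 14 tested cadherins and catenins and none was higher.

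Receptors and channels showed single genes past the fold rather than whole families. *Grik4* and *Grm2* were lower among 12 tested glutamate receptor genes, with a median log2 ratio of -0.03 in control cells and 0.04 in knockout cells, and the rule itself set *Grik1* to 0. *Gabrg3*, a GABA-A receptor subunit gene, was lower among 8 tested GABA receptor genes, at 240 against 373 CPM in control cells and 154 against 336 CPM in knockout cells, and at ratios of 0.601 and 0.427 to the cells with 0 or 1 *Cck* UMI. *Kcnip1* was higher and *Kcnd2* lower among 30 tested potassium channel genes. *Cacna2d3* was the 1 gene past the fold among 18 tested sodium, calcium and HCN channel genes, and *Cacng5* among 6 tested TARP and AMPA receptor auxiliary genes. No gene of the 10 tested for Rap1 signalling, the 9 tested *Bcl2* family and caspase genes, the 15 tested immature neuron genes or the 4 tested chloride cotransporters was past the fold in both libraries.

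Factors and signalling genes of CR cells were mostly level. Of 16 tested CR identity transcription factor genes, *Nr2f1* was lower, at 21.6 against 67.9 CPM in control cells and 13.7 against 72.9 CPM in knockout cells, and none was higher. *Ebf3*, of the COE factor family, was at 855 against 893 CPM and at 855 against 841 CPM. Among 7 tested reelin pathway genes, *Dab1*, the intracellular adaptor of reelin receptors, was lower, at 67.3 against 140 CPM and 144 against 225 CPM. *Jag1* was the 1 gene past the fold among 13 tested Notch genes, and *Calb2* and *Caln1* were higher among 10 tested calcium-binding protein genes. Of 6 tested CIC target and ERK feedback genes, *Spred1* was higher and none was lower. Its ratios to the cells with 0 or 1 *Cck* UMI were 1.77 in the control and 1.66 in the knockout. Of 17 tested immediate early genes, *Gadd45b* was higher and the activity-regulated factor gene *Npas4* lower, the latter at 57.7 against 115 CPM and 24.0 against 94.9 CPM.

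Signs of RNA quality were read beside these families. Nuclear-retained transcripts made up 8.69% (8.63 to 8.76) of UMIs in the *Cck*-positive and 8.18% (8.16 to 8.21) in the other control cells, and 8.89% (8.79 to 9.002) and 8.14% (8.10 to 8.18) in the knockout cells. Most of this was *Malat1*, at 74260 of 86920 CPM in control and 76090 of 88930 CPM in knockout *Cck*-positive cells. The median log2 ratio of the 8 tested nuclear-retained transcripts was negative, at -0.22 in control cells and -0.16 in knockout cells. Immediate early genes made up 0.236% against 0.251% in control cells and 0.208% against 0.239% in knockout cells, and were highest in the *Chst8* or *Alkal2* cells, at 0.322% and 0.334%. Heat shock genes differed little, at 0.270% against 0.272% and 0.330% against 0.325%. The part of the nuclear transcripts in the differences between *Cck*-positive and other cells was not tested.

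The cells of both sexes were read apart, since the pools differed in sex. Cells with Y-linked UMIs and no *Xist* were *Cck*-positive in 15.3% of 647 control and 11.7% of 171 knockout cells, and cells with *Xist* and no Y-linked UMI in 14.8% of 210 and 13.0% of 161. The control *Xist* cells came from 1 mouse. *Ptprm* was higher in the *Cck*-positive cells of either kind, by 2.50-fold and 2.78-fold in control cells and 4.31-fold and 2.69-fold in knockout cells, in the order of Y-linked and *Xist* cells. The *Cacng5* ratio was 0.934 (0.236 to 2.71) in the knockout *Xist* cells.

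The second comparison asked how the *Cck*-positive cells of the knockout library differed from those of the control library. *Cic* itself was at 60.1 CPM in control and 30.9 CPM in knockout *Cck*-positive cells, on 50 and 9 UMIs, a ratio of 0.514 (0.222 to 1.06). In the other cells it was at 55.9 and 54.4 CPM, a ratio of 0.974 (0.772 to 1.22). UMIs were counted at the 3′ ends of transcripts, so they do not check the deleted part of the gene. The library with the knockout genotype is called so by its label. By staining for the CIC protein, the paper reports its loss from most but not all hippocampal CR cells of this line. Some cells of the knockout library may thus keep CIC, and values of knockout cells cover all cells of that library.

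Of 19 listed CIC target and ERK feedback genes, 1 reached 100 UMIs in the *Cck*-positive cells, and it was not past 1.5-fold between the genotypes. The genes named here had fewer UMIs and are given with their intervals. *Etv5*, the gene of an ETS factor, had 13 UMIs in control cells and 28 in knockout cells (15.6 and 96.1 CPM), a ratio of 6.15 (3.08 to 12.9), and *Etv4* had 2 and 15 UMIs, a ratio of 21.4 (4.98 to 193). In the other CR cells, the ratios were 4.57 (3.41 to 6.17) for *Etv5* and 33.0 (17.9 to 67.5) for *Etv4*. A UMI of *Etv4* or *Etv5* was found in 11 of 136 control *Cck*-positive cells, or 8.09% (4.11 to 14.0), and in 16 of 44 knockout cells, or 36.4% (22.4 to 52.2). The shares in the other cells were 8.59% and 40.0%, close to those of the *Cck*-positive cells within counting error. Knockout droplets of 20 to 100 UMIs also held these genes, at 48.4 CPM for *Etv4* and 51.0 CPM for *Etv5*, against 0.459 and 3.67 CPM in control droplets. The shares of cells with a UMI include free RNA, whose share was 4.59% in knockout and 11.5% in control CR cells.

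The growth factor gene *Fgf1* had 1 UMI in control and 5 in knockout *Cck*-positive cells, a ratio of 14.3 (1.60 to 676), and 3.12 and 47.4 CPM in the other cells. *Fgfr1*, a receptor gene for FGFs, had 7 and 15 UMIs, a ratio of 6.12 (2.35 to 17.8), beside 4.31 (2.79 to 6.77) in the other cells. *Vgf*, the gene of a secreted neuropeptide precursor, had an interval that included 1. It was at 28.8 CPM in control and 41.2 CPM in knockout *Cck*-positive cells, a ratio of 1.43 (0.651 to 2.97) on 24 and 12 UMIs, whereas in the other cells it was at 15.6 and 67.9 CPM, a ratio of 4.36 (3.26 to 5.86). The 2 intervals do not overlap, but the difference between them was not tested over samples. Summed over the 19 listed target and feedback genes, the ratio was 1.93 (1.62 to 2.30) in the *Cck*-positive cells.

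Over 2168 genes with at least 100 UMIs in the *Cck*-positive cells, 67 (3.09%) were at least 1.5-fold higher and 104 (4.8%) at least 1.5-fold lower in knockout cells. With libraries scaled by the median ratio in place of CPM, these counts were 89 higher and 85 lower. With free RNA subtracted they were 159 and 162, and without the top cell of each gene 29 and 227. Of the same genes in the other CR cells, 22 (1.01%) were higher and 11 (0.507%) lower, and the *Cck*-positive cells, with 129 and 45 UMIs per gene at the median, had the larger counting error. The median log2 ratio was -0.04. The summed astrocyte markers were at 64.9 CPM in *Cck*-positive cells of the control and 124 CPM in those of the knockout, with *Apoe* the most abundant in the latter at 58.3 CPM and with *Aqp4*, *Aldh1l1* and *Gja1* at 0 in both. Between the same cells, the ratio of knockout over control was 1.65 (1.05 to 2.55) for the precursor markers, 0.538 (0.273 to 0.982) for the microglial markers, 1.22 (1.13 to 1.32) for heat shock genes and 0.878 (0.8004 to 0.962) for immediate early genes. The part of these sums in the counts was not tested.

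The 6 highest genes by the interval bound nearer to 1 included *Xist*, *Camk1d*, *Nbr1*, *Shisal2b* and *Ebf1*. *Xist*, the RNA that silences an X chromosome in females, was at 383 and 951 CPM, a ratio of 2.48 (2.10 to 2.92), and the share of females differed between the pools. *Camk1d*, a calmodulin-dependent kinase gene, was at 616 and 1205 CPM, a ratio of 1.95 (1.70 to 2.24) beside 1.97 (1.87 to 2.08) in the other cells, and was at 2379 and 4512 CPM in the droplets. *Ebf1*, the gene of another COE factor, was at 100.9 and 189 CPM in the *Cck*-positive cells, a ratio of 1.87 (1.31 to 2.66), and at 70.6 and 57.9 CPM in the other cells, a ratio of 0.820 (0.658 to 1.02). The ratio of these ratios was 2.28, with no test over samples. *Ebf1* was chosen for its high ratio in these same *Cck*-positive cells, which favours a high value. *Nbr1*, an autophagy receptor gene, was at 91.3 and 199 CPM.

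The 6 lowest genes were *Fut9*, *Igf2bp3*, *Plcl1*, *Diaph2*, *Ptma* and *Tmsb4x*. *Fut9*, the gene of a fucosyltransferase, was at 316 CPM in control and 148 CPM in knockout *Cck*-positive cells, a ratio of 0.467 (0.330 to 0.647), and at 258 and 256 CPM in the other cells. *Diaph2*, a formin gene, had a ratio of 0.421 (0.245 to 0.684) beside 1.11 (0.960 to 1.28). The RNA-binding protein gene *Igf2bp3* had 0.369 (0.184 to 0.675) beside 0.785 (0.659 to 0.932). *Plcl1* was lower in both groups, at ratios of 0.549 (0.439 to 0.680) and 0.626 (0.568 to 0.688). *Ptma* and the thymosin gene *Tmsb4x* were abundant in control droplets, at 3378 and 4039 CPM, against 452 and 226 CPM in the control *Cck*-positive cells. With free RNA subtracted, the ratio of *Ptma*, 0.570 as reported, turned to 1.60. *Tmsb4x*, with a ratio of 0.517, gave no value under that subtraction.

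**Figure D5:**
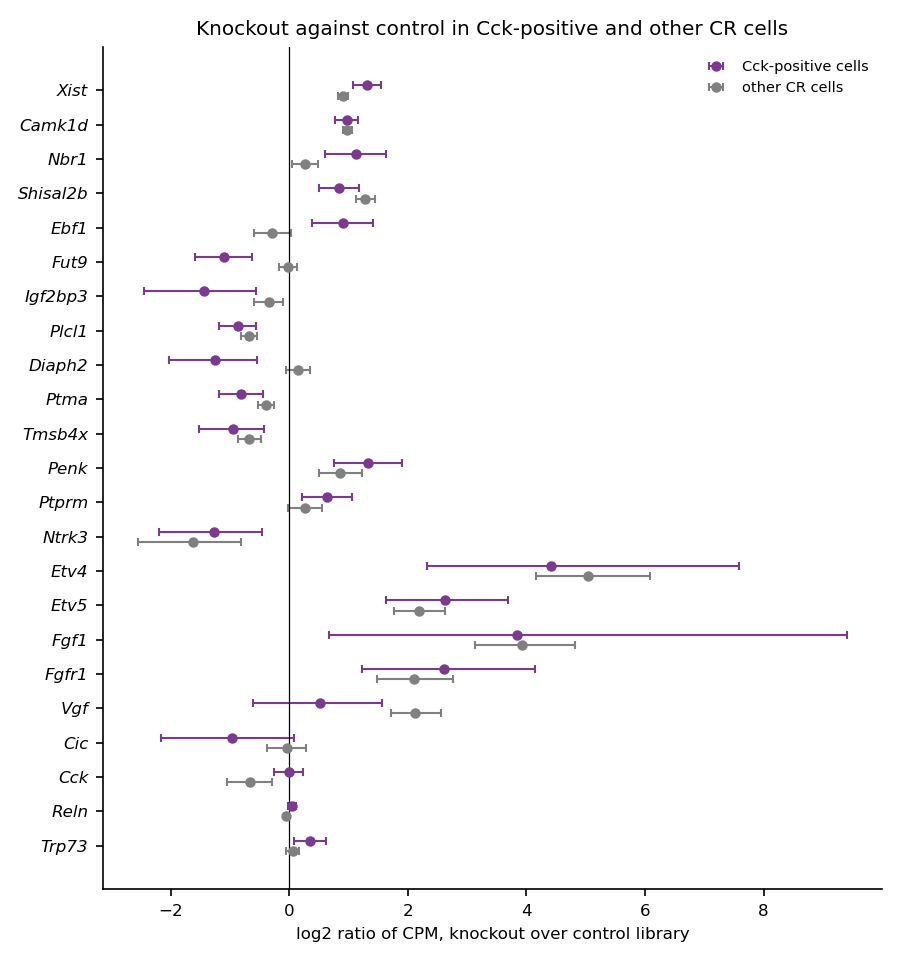
Log2 ratio of CPM in the knockout over the control library (x axis) for 23 genes (y axis), in *Cck*-positive cells (purple) and other CR cells (grey), with 95% intervals as bars. *Etv4*, *Etv5*, *Fgf1* and *Fgfr1* lie above 0 in both groups, *Vgf* has its *Cck*-positive point below that of the other cells and *Ebf1* above it, differences not tested over samples, and most bars of the *Cck*-positive cells are wider.

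The genes that marked the *Cck*-positive cells were also compared between the libraries. *Cck* was level in the *Cck*-positive cells by the way they were chosen, at a ratio of 0.992 (0.840 to 1.17). *Penk* was 2.51-fold (1.69 to 3.72) higher in the knockout *Cck*-positive and 1.82-fold (1.41 to 2.33) higher in the other cells. Without the top cell of each group, the ratio in the *Cck*-positive cells was 1.76, 1 knockout cell holding 37.3% of the *Penk* UMIs. *Ntrk3* was lower in both, at ratios of 0.412 (0.217 to 0.726) and 0.324 (0.171 to 0.568). *Ptprm* was 1.56-fold (1.15 to 2.09) higher in the *Cck*-positive cells, beside 1.202-fold (0.981 to 1.47). *Cacng5* and *Fibin* had ratios of 1.16 (0.675 to 1.94) and 1.13 (0.683 to 1.83). The intervals of *Cck*, *Cacng5* and *Fibin* include 1.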

How the data were processed

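Hippocampal cells positive for tdT and negative for DAPI were sorted and captured with 10x Genomics 3′ chemistry, 1 library per genotype. The authors deposited raw counts of UMIs for 32285 genes in every barcode, without normalization or cell calling. The sources disagree on the processing. The matrix header names Cell Ranger 4, the submitters' notes name Cell Ranger 8.0.1 and mm39, and the paper's methods name another version with mm10. Intron counting and strand are not given in the sources used here. The other deposited files held gene and barcode names.

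Cells were chosen by the rule stated with the results. The members and gene lists were chosen with earlier results of these data known. UMIs were summed per group and scaled to CPM outside mt-, Rpl, Rps and Mrp genes. Ratios have exact conditional Poisson intervals, levels exact Poisson intervals and shares Clopper-Pearson intervals, all at 95%. A gene was called past 1.5-fold, with at least 200 UMIs for *Cck*-positive against other cells and 100 for knockout against control. No test, p-value or standard error was made from cells. Named genes were the markers, the genes the study names, the 12 highest and 12 lowest against other cells, the 6 highest and 6 lowest in the knockout, and list members past the fold or abundant. No single cell could hold over 20% of a ranked gene's UMIs among the compared cells of a library, which were all CR cells or, between genotypes, the *Cck*-positive cells. Genes used by the rule were not ranked, and a few genes named by these rules are not reported here.

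Positions came from GENCODE M21 by Ensembl identifier and promoters from RefSeq (GRCm38.p6), which had an entry for *Cck*, *Ptprm*, *Cacng5* and *Fibin* and none for *Penk* and *Ntrk3*. Python 3.11.15, numpy 2.4.6, scipy 1.17.1, pandas 2.3.3 and, for doublet scores, Scrublet in scanpy 1.11.5 were used. The ratios of *Cck*-positive over other cells and their intervals were tested on simulated Poisson counts summed per group. That simulation held no variation between cells and did not cover the cell rule, thinning, doublets, free RNA or the genotype ratios. Alternatives covered each limit of the rule, doublets, scaling, thinning to 3000 UMIs, free RNA, sex, the fold, the UMI minimum and the top cell of each gene.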

Additional observations from a re-analysis of the deposited data

Results flagged for a closer look

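Some genes were past 1.5-fold in opposite directions between *Cck*-positive and other CR cells in the control and the knockout, which is what drew attention to them, and the difference was not tested. Their UMIs were often held by few cells. *Utp11* had a ratio of 0.275 in the control and 14.1 in the knockout, where 1 *Cck*-positive cell held 121 of 129 UMIs. *C920021L13Rik* had 0.582 and 3.88, with 65 of 70 UMIs in 1 knockout cell, and *Prkce* had 0.566 and 1.91, with 59 of 69 UMIs in 1 cell. *2810403D21Rik* had 0.485 and 2.02, with 22 of 27 UMIs in 1 cell. *1700034P13Rik* had 2.39 and 0.0674, with 66 of 69 control UMIs in 1 cell and 1 UMI in the knockout. *Ipo11* had 1.69 and 0.237 on 61 and 4 UMIs, *Map3k5* had 1.57 and 0.267 on 48 and 4 UMIs, and *Map3k13* had 0.578 and 2.12 on 15 and 16 UMIs.

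Other genes had opposite directions between the genotypes in the *Cck*-positive and the other cells, with intervals on either side of 1, and the difference was not tested. The ratio of knockout over control in *Cck*-positive cells was 0.577 for *Arl3* (other cells 1.22), 0.461 for *Atp8a1* (1.16), 0.585 for *Pam* (1.21), 1.58 for *Pcdh11x* (0.844) and 1.63 for *Pdzrn4* (0.831).

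Cells outside the limits also held *Cck*. At least 2 *Cck* UMIs were found in 19 control and 9 knockout barcodes at or above the OXPHOS limit, and, with at least 5 *Reln* UMIs, in 13 control and 3 knockout barcodes of at least 500 and under 2000 UMIs, where a count of 0 would allow 3. These cells entered no comparison.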

How the results depend on the processing

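No paired analysis was possible because each genotype was 1 library without replicate numbers. The share of *Cck*-positive cells in the control and the knockout was 24.7% and 20.1% with at least 1 *Cck* UMI, 9.93% and 8.02% with at least 3, and 9.86% and 8.09% after thinning to 3000 UMIs. The numbers of genes higher and lower in *Cck*-positive cells, 69 and 112 as reported, were 28 and 64 in *Xist* cells, 293 and 376 at a fold of 1.25, 14 and 36 at a fold of 2, 387 and 810 at a minimum of 20 UMIs, and 21 and 26 at a minimum of 800 UMIs. Without the top cell of each gene they were 38 and 233, where 1 cell is a larger share of the smaller group. The number lower was 74 with at least 1 *Cck* UMI, 70 against cells under the same *Grik1*, *Chst8* and *Alkal2* limits, and 66 against such cells with 0 *Cck* UMIs, a comparison chosen after seeing the data. The numbers higher and lower in the knockout, 67 and 104 as reported, were 123 and 175 with at least 1 *Cck* UMI, 29 and 30 in *Xist* cells, 159 and 162 with free RNA subtracted, 288 and 391 at a fold of 1.25, 6 and 11 at a fold of 2, 29 and 227 without the top cell, 858 and 1144 at a minimum of 20 UMIs, and 2 and 2 at a minimum of 400 UMIs. For 68 reported values between *Cck*-positive and other cells, 1631 ratios of single genes were recomputed, including under the fold and UMI minimum settings. Those settings do not enter a ratio, so it stayed within its interval there by construction. Of the 1631 ratios, 1561 stayed within the reported interval and 2 changed direction, both in *Xist* cells. They were *Cacng5* in the knockout, at 0.934, and *Cnnm1* in the control, at 0.833. Of 434 ratios between the genotypes, for 20 reported values, 422 stayed within the reported interval, again including the fold and UMI minimum settings. *Ptma* changed direction, to 1.60 with free RNA subtracted. A change of direction was counted only for genes past the fold with at least 100 UMIs. *Cic*, *Etv4*, *Etv5*, *Fgf1*, *Fgfr1* and *Vgf* had fewer UMIs, so a change in them was not counted, and their intervals are wide. The genes behind the counts also changed. Of the 67 higher and 104 lower in the knockout, 64 and 98 were shared with at least 10 *Reln* UMIs. Only 28 and 52 were shared at 4000 to 10000 UMIs, and 15 and 27 in Y-linked cells, where 1318 genes were tested. Of the 69 and 112 against other cells, 67 and 111 were shared with at least 10 *Reln* UMIs and 29 and 58 in Y-linked cells. The causes were not tested. Removing the highest doublet scores took 8 of 1011 control and 1 of 406 knockout barcodes, numbers set in advance from the barcode counts. Among them were 2 control and no knockout *Cck*-positive cells, which with 1 knockout barcode removed says little about doublets there. The 44 knockout cells limit every gene with few UMIs, and 1 library per genotype leaves genotype and pool indistinguishable.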
